A study of Homo sapiens with 12 samples.

Results

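The regions described here are short stretches of chromatin close to the start of protein-coding genes at which ChIP-exo gave peaks for both phosphoserine STAT3 and BCL9 in control DCIS.COM cells. There were 526 of them among 37044 control pSTAT3 regions (1.42%), and they made up 6.16% of the 8542 pSTAT3 regions that overlapped a BCL9 region. They were chosen from the control peak lists: every peak pair became a 100 bp window round its midpoint, the windows of an antibody were merged, and a region was kept when at least 2 of the 3 control libraries had a window in it. A pSTAT3 region counted as a shared promoter region when it overlapped a BCL9 region by at least 1 bp and its middle lay within 1 kb of a transcription start site (TSS) of a protein-coding transcript on hg19. Presence in the 6 control pSTAT3 and BCL9 libraries is therefore part of the choice and is given as a description only; the 4 knockdown libraries, the CTCF library, the spacing within peak pairs and the DNA sequence were not used in it.

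DCIS.COM is an established human breast cancer cell line that serves as a model of ductal carcinoma in situ. Control cells (NS, labelled Non-scrambled control and carrying a non-silencing hairpin per the study's methods) and cells with BCL9 knocked down by a single short hairpin RNA were grown in DMEM/F12 with horse serum, 5%, and a 1% antibiotic, and were crosslinked per replicate. Control cells gave 3 pSTAT3 libraries, 3 BCL9 libraries and 1 CTCF library, and BCL9 knockdown (KD) cells gave 2 pSTAT3 and 2 BCL9 libraries, all labelled as biological replicates of the same line. The pSTAT3 antibody recognises STAT3 phosphorylated on a serine near its end, the PS form of the study; the IgG library was not analysed here, so no background of an unspecific antibody stands beside the values.

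STAT3 is a transcription factor that cytokine receptors and kinases activate, and phosphorylation of its serine is best known for tuning transcription and its role in mitochondria. BCL9 has no known DNA-binding domain of its own and is best known as a co-activator that joins β-catenin to PYGO in Wnt signalling, so a BCL9 signal on DNA is read through the proteins that carry it there. Promoters of vertebrate genes fall broadly into CpG-rich ones, common at widely expressed genes, and CpG-poor ones, common at tissue-restricted genes. In ChIP-exo an exonuclease trims the precipitated DNA up to the crosslinked protein, so each bound site leaves a border on either strand, and the pair of borders is called a peak pair.

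The list of each library ranged from 24728 peak pairs (control BCL9 replicate 2) to 493174 (knockdown pSTAT3 replicate 2), and the lowest listed peak pair held 3 to 9 tags. Each library has its own scale, so that tags are not comparable in level between libraries; where libraries are set side by side, the rank of a peak pair within its own list is used (its signal percentile, 100 being the strongest). Control replicate 1 of each antibody is named with 1 sequencing run and the other libraries with 3. Without those 2 libraries, asking for both remaining ones, 212 shared promoter regions were found, and only 199 without control BCL9 replicate 3, so the number of regions depends on which control libraries are read.

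The sequences of 8 regions are shown first, as examples of the letters behind the string counts below: 5 hold the AP-1 string, 1 the TEAD string alone and 2 none of those searched. Each is the 100 bp of GRCh37 round the strongest control pSTAT3 peak pair. Capitals mark a match to one of 16 searched strings: TGACTCA or its reverse complement TGAGTCA for AP-1 in WWTR1, SPRED2, LAMB3, AXL and CXCL8; ACATTCC for TEAD in PLOD2; TATAAA, read on the other strand, in SPRED2; and GGGNNTTCC, on the other strand, for NF-kB in LAMB3. The ITGB5 and DUSP6 windows held none of the 16 strings. The windows of WWTR1, ITGB5, SPRED2 and AXL lie in introns, those of PLOD2, LAMB3 and CXCL8 outside annotated genes, and that of DUSP6 in an exon of a non-coding transcript.
WWTR1, chr3:149294167-149294266, plus strand: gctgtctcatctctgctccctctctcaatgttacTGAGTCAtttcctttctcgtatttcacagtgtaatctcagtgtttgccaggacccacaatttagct
SPRED2, chr2:65593895-65593994, plus strand: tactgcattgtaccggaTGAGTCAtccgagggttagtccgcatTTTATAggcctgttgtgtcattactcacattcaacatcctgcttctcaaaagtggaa
LAMB3, chr1:209826467-209826566, plus strand: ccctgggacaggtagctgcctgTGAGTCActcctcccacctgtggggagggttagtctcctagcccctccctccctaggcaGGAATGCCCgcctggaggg
AXL, chr19:41731740-41731839, plus strand: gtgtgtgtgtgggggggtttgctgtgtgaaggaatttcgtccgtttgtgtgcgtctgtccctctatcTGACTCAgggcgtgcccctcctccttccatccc
CXCL8, chr4:74606131-74606230, plus strand: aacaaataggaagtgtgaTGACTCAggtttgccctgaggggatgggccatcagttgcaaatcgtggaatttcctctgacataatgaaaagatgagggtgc
PLOD2, chr3:145881539-145881638, plus strand: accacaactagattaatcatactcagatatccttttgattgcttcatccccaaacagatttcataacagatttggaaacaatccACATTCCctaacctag
ITGB5, chr3:124597908-124598007, plus strand: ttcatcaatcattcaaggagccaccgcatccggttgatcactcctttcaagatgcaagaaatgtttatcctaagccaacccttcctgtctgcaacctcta
DUSP6, chr12:89746355-89746454, plus strand: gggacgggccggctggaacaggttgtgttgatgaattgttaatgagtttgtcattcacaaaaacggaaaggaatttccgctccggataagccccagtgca

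After BCL9 knockdown most of these regions still had windows of both antibodies. In the knockdown pSTAT3 libraries 89.9% and 91.6% of the 526 regions had a window (Wilson 95% intervals 87.1 to 92.2 and 89.0 to 93.7), a mean of 90.8% ± 1.21 (SD, n = 2). In the knockdown BCL9 libraries the shares were 71.9% (67.9 to 75.5) and 89.5% (86.6 to 91.9), a mean of 80.7% ± 12.5 (SD, n = 2). These intervals cover counting error only. Over all 37044 control pSTAT3 regions the same 4 libraries had a window in 80.4%, 82.9%, 40.9% and 62.9%. The knockdown pSTAT3 lists held 415624 and 493174 peak pairs, against 98665 to 374089 in control. The knockdown BCL9 lists held 95586 and 336493, against 24728 to 148755 in control. Of the 2 knockdown BCL9 lists the longer, that of replicate 2, held the higher share. At equal list length the knockdown pSTAT3 share was lower, as given in the last section. All 4 knockdown libraries had a window at 321 regions (61.0%), and 0 of 526 lacked one in every knockdown library, which allows a share of up to 0.570%. Peak lists hold no measure of BCL9 protein, and whether these BCL9-antibody windows rest on residual BCL9 was not tested.

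**Figure D1:**
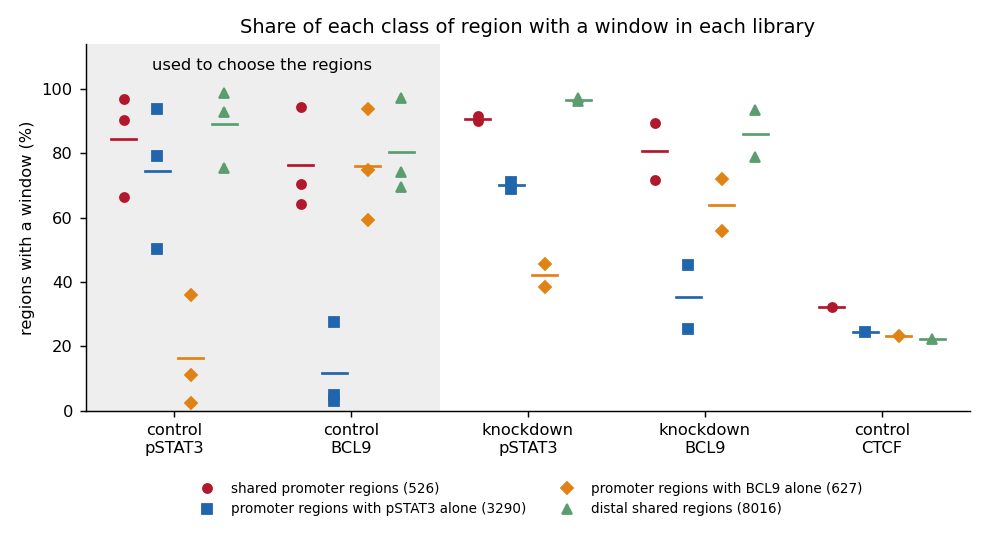
Share of regions with a window (y axis, percent) in each library (points) and its mean (lines), by antibody and condition, for 4 classes of region with their number in brackets; the shaded control libraries chose the regions. In the knockdown pSTAT3 libraries the shared promoter regions (89.9% and 91.6%) sit below the distal shared regions (96.3% and 97.1%) and above the promoter regions with pSTAT3 alone (69.1% and 71.2%).

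Set against the 8016 shared regions farther than 1 kb from a TSS (distal shared regions), the promoter regions kept a window slightly less often. The distal shares were 96.3% and 97.1% in knockdown pSTAT3 and 78.9% and 93.5% in knockdown BCL9, and promoter minus distal was below 0 in 4 of 4 libraries, with a mean of −5.68 ± 1.34 percentage points (SD, n = 4; exact two-sided sign-flip p = 0.125, the smallest that 4 libraries allow). Their strongest peak pairs also ranked lower within the knockdown lists, the median percentile minus the distal one being −4.23 ± 1.11 points, below 0 in 4 of 4 libraries (SD, n = 4; exact sign-flip p = 0.125). Both differences therefore had the same direction in each library, but the design cannot pass 0.05. Distal shared regions were wider, with a median of 313 bp against 257 bp, and a wider region has more room for a window. Asked only of the 100 bp round the region's centre, a choice made after seeing the data, the difference in share was −7.71 points.

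The other comparison is with the 3290 promoter regions that had pSTAT3 but no BCL9 region in control cells. There the knockdown BCL9 libraries had a window in 25.3% and 45.3%, so that the shared promoter regions stood 45.4 ± 1.68 percentage points higher (SD, n = 2, higher in 2 of 2 libraries; exact sign-flip p = 0.5, the smallest possible). The 627 promoter regions with BCL9 alone had a window in 56.0% and 71.9%. In the knockdown pSTAT3 libraries those BCL9-alone regions had one in 38.6% and 45.6%, below the 69.1% and 71.2% of the pSTAT3-alone regions. Each antibody thus returned more often in knockdown cells at the promoters where it had been seen in control cells. Shared promoter regions were wider, with a median of 257 bp against 182 bp for pSTAT3-alone and 181 bp for BCL9-alone regions. The part of width in the higher shares of shared promoter regions was not tested.

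A minority of regions had no BCL9-antibody window after knockdown. These were 34 of 526 (6.46%), of which 23 had a window in both knockdown pSTAT3 libraries, while 13 (2.47%) had none in either knockdown pSTAT3 library. The 34 regions were narrower, with a median width of 168 bp against 281 bp for the regions with a window in both knockdown BCL9 libraries. CYB561, which encodes a transmembrane electron-transfer cytochrome, stood highest among them by control pSTAT3 rank, with 4, 12 and 31 tags in the control pSTAT3 libraries, 5, 0 and 10 in control BCL9, 46 and 8 in knockdown pSTAT3 and 0 and 0 in knockdown BCL9. CIRBP, a cold-inducible RNA-binding protein, had 5, 8 and 25 tags in the control pSTAT3 libraries, 5, 14 and 0 in control BCL9, 24 and 19 in knockdown pSTAT3 and 0 and 0 in knockdown BCL9. PDLIM7, an actin-associated LIM protein, had 4, 0 and 23 tags in the control pSTAT3 libraries, 0, 10 and 14 in control BCL9, 20 and 9 in knockdown pSTAT3 and 0 and 0 in knockdown BCL9. In all 3 the control BCL9 values, where listed, were 5 to 14 tags, in lists whose lowest entries hold 5, 9 and 6 tags, and the knockdown BCL9 lists start at 7 and 5 tags; how much of the absence is a matter of these floors was not tested. PHLDA1, H2AC20, ARPP19, EIF2B3 and WBP2 completed the 8 named by the rule, with 5 to 31 control BCL9 tags where a window was listed. H2AC20 had 2 shared promoter regions, and the other one held 28 and 21 tags in knockdown BCL9.

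The strongest shared promoter region in the knockdown lists was at WWTR1, the gene of TAZ, the Hippo pathway co-activator that partners TEAD factors. Its region at chr3:149293872-149294476, with its centre 178 bp upstream of an alternative start inside the gene, held 60, 63 and 81 tags in the control pSTAT3 libraries, 44, 61 and 73 in control BCL9, 119 and 107 in knockdown pSTAT3 and 139 and 69 in knockdown BCL9, and the CTCF list had no window there. Its mean percentile over the 4 knockdown lists was 99.97, and the sequence shown above holds an AP-1 string. It was high in every pSTAT3 and BCL9 library. AXL, a receptor tyrosine kinase often listed with YAP and TAZ targets, held 54, 44 and 78 tags in the control pSTAT3 libraries, 8, 19 and 36 in control BCL9, 125 and 76 in knockdown pSTAT3 and 18 and 13 in knockdown BCL9. There the pSTAT3 peak pairs ranked high and the BCL9 peak pairs stood lower in their lists, with a mean knockdown percentile of 96.67. AMOTL2 and AMOTL1, scaffold proteins of the same pathway, had means of 49.9 and 20.63. In all, 4 of the 19 YAP and TEAD genes had a region (21.1%), beside 2.49% of all 19748 protein-coding genes. The 12 strongest regions also included those of PAX8, a paired-box transcription factor, WSB2, a substrate receptor of a ubiquitin ligase, COQ8B, needed for coenzyme Q, KLK6, a secreted serine protease, and SAP30BP. Their mean percentiles were 99.59, 99.59, 99.57, 99.35 and 99.04.

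**Figure D2:**
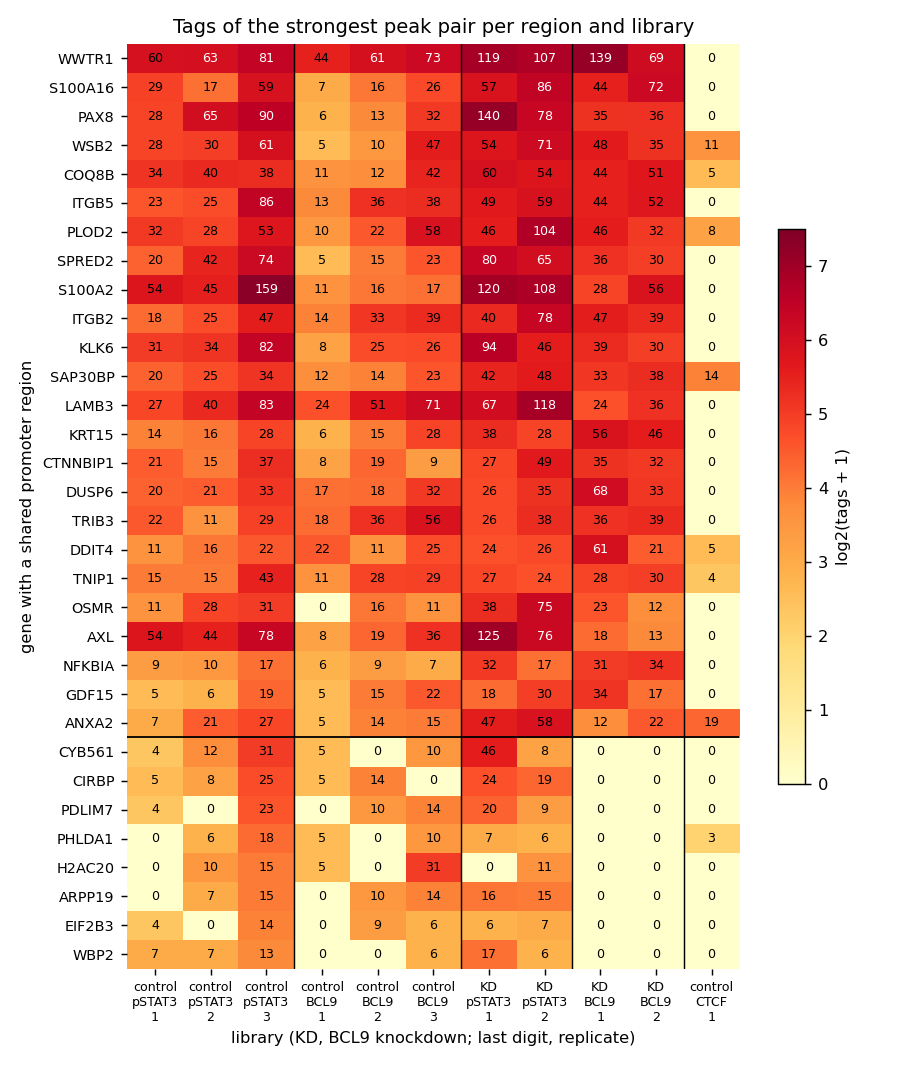
Tags of the strongest peak pair (number and colour, log2(tags + 1); 0 means no listed window) in each library (columns) for 24 named regions in the order of their mean knockdown percentile and, under the line, 8 regions without a knockdown BCL9 window. Tags compare regions within a column, not libraries with each other; WWTR1 holds 44 to 139 tags in all 10 pSTAT3 and BCL9 libraries.

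Of the immediate early and MAPK feedback genes 8 of 37 (21.6%) had a shared promoter region. Those ranked highest in the knockdown lists, SPRED2 and DUSP6 (mean percentiles 99.46 and 98.24), are known for switching MAPK signalling off. For comparison, 491 of 19748 protein-coding genes had a shared promoter region (2.49%), and 19 of the same 37 genes had a promoter region with pSTAT3 alone. The share of all protein-coding genes with a pSTAT3-alone promoter region was not counted. The pSTAT3-alone counts here and below therefore cannot be called high or low, and that class is the larger one (3290 regions against 526). SPRED2, an inhibitor of RAS to RAF signalling, held 20, 42 and 74 tags in the control pSTAT3 libraries, 5, 15 and 23 in control BCL9, 80 and 65 in knockdown pSTAT3 and 36 and 30 in knockdown BCL9 at chr2:65593644-65594221. DUSP6, a phosphatase that inactivates ERK, held 20, 21 and 33 tags in the control pSTAT3 libraries, 17, 18 and 32 in control BCL9, 26 and 35 in knockdown pSTAT3 and 68 and 33 in knockdown BCL9. SPRY2, another feedback inhibitor of receptor tyrosine kinases, held 22, 27 and 26 tags in the control pSTAT3 libraries, 6, 0 and 13 in control BCL9, 28 and 53 in knockdown pSTAT3 and 0 and 8 in knockdown BCL9, so 1 of its 2 knockdown BCL9 libraries had no window. SPRY2, ATF3, FOSB and ZFP36L1 had mean knockdown percentiles of 69.01, 85.32, 31.05 and 20.13, and MYC had 3 separate regions with means from 20.1 to 76.19. ATF3 and the highest MYC region thus ranked above SPRY2. Of AP-1 genes, FOSL2, a FRA protein, ranked highest, with 9, 7 and 31 tags in the control pSTAT3 libraries, 0, 15 and 12 in control BCL9, 56 and 28 in knockdown pSTAT3 and 14 and 11 in knockdown BCL9. ELF3, an epithelial ETS factor, had 0, 7 and 21 tags in the control pSTAT3 libraries, 0, 10 and 14 in control BCL9, 11 and 6 in knockdown pSTAT3 and 10 and 16 in knockdown BCL9; 4 of 23 genes that encode factors of the AP-1, C/EBP, ETS or REL families had a region (17.4%).

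The largest share of the 21 lists was that of genes of basal epithelium and laminins, 7 of 26 (26.9%): LAMB3, LAMA3, PLEC, KRT5, KRT6B, KRT15 and KRT17. LAMB3 encodes the β chain of the laminin that anchors basal cells to the basement membrane, and its region at chr1:209826350-209826870 held 27, 40 and 83 tags in the control pSTAT3 libraries, 24, 51 and 71 in control BCL9, 67 and 118 in knockdown pSTAT3 and 24 and 36 in knockdown BCL9. LAMA3, the α chain of the same laminin, held 20, 17 and 39 tags in the control pSTAT3 libraries, 7, 0 and 24 in control BCL9, 88 and 43 in knockdown pSTAT3 and 10 and 17 in knockdown BCL9. Both were present in all 4 knockdown libraries, and LAMA3 lacked a window in control BCL9 replicate 2 alone among the 10. KRT15, a keratin of basal layers, was 1 of 2 genes with 4 shared promoter regions, and its strongest held 14, 16 and 28 tags in the control pSTAT3 libraries, 6, 15 and 28 in control BCL9, 38 and 28 in knockdown pSTAT3 and 56 and 46 in knockdown BCL9. KRT17 and KRT5 reached mean knockdown percentiles of 83.13 and 69.6, and KRT6B, whose reads may be shared with near-identical keratin genes, 73.14. All 7 lay in CpG-poor sequence.

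Single adhesion and matrix genes stood near the top of the ranking. ITGB5, an integrin β subunit, held 23, 25 and 86 tags in the control pSTAT3 libraries, 13, 36 and 38 in control BCL9, 49 and 59 in knockdown pSTAT3 and 44 and 52 in knockdown BCL9 at chr3:124597299-124598231. ITGB2, the β subunit of leukocyte integrins, had 3 regions, the strongest with 18, 25 and 47 tags in the control pSTAT3 libraries, 14, 33 and 39 in control BCL9, 40 and 78 in knockdown pSTAT3 and 47 and 39 in knockdown BCL9. They were the only 2 of 16 integrin genes and CD44 with a shared promoter region, whereas 8 of the 16 had a promoter region with pSTAT3 alone. PLOD2, a lysyl hydroxylase that prepares collagen for crosslinking, held 32, 28 and 53 tags in the control pSTAT3 libraries, 10, 22 and 58 in control BCL9, 46 and 104 in knockdown pSTAT3 and 46 and 32 in knockdown BCL9. Of the actin and focal adhesion genes 6 of 36 had a region (16.7%); ANXA2, a calcium-dependent membrane and actin binder, had 3, the strongest with 7, 21 and 27 tags in the control pSTAT3 libraries, 5, 14 and 15 in control BCL9, 47 and 58 in knockdown pSTAT3 and 12 and 22 in knockdown BCL9, and here the CTCF list had a peak pair of 19 tags. ACTB and TPM1 ranked lower, at means of 73.14 and 50.82.

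Cytokine and inflammatory genes were represented on both the receptor and the target side. OSMR, the oncostatin M receptor subunit that signals to STAT3, held 11, 28 and 31 tags in the control pSTAT3 libraries, 0, 16 and 11 in control BCL9, 38 and 75 in knockdown pSTAT3 and 23 and 12 in knockdown BCL9. LCN2, a secreted lipocalin and known STAT3 and NF-kB target, held 14, 12 and 18 tags in the control pSTAT3 libraries, 7, 16 and 29 in control BCL9, 25 and 57 in knockdown pSTAT3 and 9 and 25 in knockdown BCL9. Control BCL9 replicate 1 was the single library with no window at OSMR, and none was missing at LCN2. CXCL8, a neutrophil chemokine, held 11, 10 and 23 tags in the control pSTAT3 libraries, 0, 13 and 9 in control BCL9, 20 and 6 in knockdown pSTAT3 and 32 and 11 in knockdown BCL9. NFKBIA, the inhibitor that NF-kB induces against itself, had a mean knockdown percentile of 96.46, TNIP1, another inhibitor of that pathway, 97.05, and IRF1 84.92. In all, 5 of 31 STAT3 and cytokine targets (16.1%) and 4 of 22 NF-kB genes (18.2%) had a shared promoter region, while 15 of the 31 and 9 of the 22 had one with pSTAT3 alone; the 5 were OSMR, LCN2, IRF1, MYC and FGL1, and SOCS3 and SOCS1, feedback inhibitors of JAK signalling, were not among them.

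The list of Wnt and BCL9 genes had 3 of 24 members (12.5%): CTNNBIP1, RNF43 and MYC. CTNNBIP1, a small protein that keeps β-catenin from TCF, held 21, 15 and 37 tags in the control pSTAT3 libraries, 8, 19 and 9 in control BCL9, 27 and 49 in knockdown pSTAT3 and 35 and 32 in knockdown BCL9. RNF43, a ubiquitin ligase that removes Frizzled receptors, held 14, 11 and 24 tags in the control pSTAT3 libraries, 11, 18 and 27 in control BCL9, 24 and 23 in knockdown pSTAT3 and 12 and 23 in knockdown BCL9. Both had a window in all 10 libraries. The TCF/LEF string CTTTGAT is counted with the other strings below. Stress genes gave 5 of 25 (20%), among them TRIB3, a pseudokinase of the integrated stress response, with 22, 11 and 29 tags in the control pSTAT3 libraries, 18, 36 and 56 in control BCL9, 26 and 38 in knockdown pSTAT3 and 36 and 39 in knockdown BCL9. DDIT4, an inhibitor of mTOR, also on that list, held 11, 16 and 22 tags in the control pSTAT3 libraries, 22, 11 and 25 in control BCL9, 24 and 26 in knockdown pSTAT3 and 61 and 21 in knockdown BCL9. GDF15, a stress-induced cytokine, had a mean knockdown percentile of 95.89.

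Lists of general cell upkeep genes lay on both sides of the 2.49% of all protein-coding genes. Of the cytosolic ribosomal protein genes 1 of 84 had a region (1.19%, RPL24), of splicing factors 1 of 30 (3.33%, SRSF1), of ubiquitin and proteasome genes 1 of 32 (3.12%, UBE2B), and of mitochondrial respiratory chain genes 0 of 82 and of heat shock genes 0 of 18. Promoter regions with pSTAT3 alone were found at 16, 17, 9, 13 and 7 of these lists' genes in the same order. Replication and cell cycle genes had 2 of 29 (6.90%, TOP2A and MCM5), and replication-dependent histone genes 4 of 68 (5.88%), some of whose copies are near identical. The EGF receptor family had EPGN alone of 12, glycolysis SLC16A3 and GAPDH of 20, translation factors EIF2S3 and EIF2S1 of 23, and of 23 genes typical of other tissues none had a shared promoter region. RPL24 held 4, 0 and 5 tags in the control pSTAT3 libraries, 0, 0 and 6 in control BCL9, 0 and 0 in knockdown pSTAT3 and 0 and 10 in knockdown BCL9, so 4 of the 10 libraries had a window there.

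Chromosome 1 carried 82 of the 526 regions (15.6%) and 9.02% of the TSSs. It also held 11.7% of the pSTAT3-alone promoter regions and 12.1% of the distal shared regions. The paper reports BCL9 amplification in DCIS.COM by FISH, and the part of DNA copy number in these shares was not tested. Part of the 82 regions lay in the S100 gene cluster, which was singled out after its values were seen. S100 genes encode small calcium-binding proteins of epithelia and myeloid cells. Of 18 searched, 6 had 10 shared promoter regions between them, beside 2.49% of all protein-coding genes with one. The 18 were S100B, S100P, S100Z and names of S100A with a number only, so other S100 genes were not counted. S100A2 had 3 regions, the strongest with 54, 45 and 159 tags in the control pSTAT3 libraries, 11, 16 and 17 in control BCL9, 120 and 108 in knockdown pSTAT3 and 28 and 56 in knockdown BCL9. S100A16 held 29, 17 and 59 tags in the control pSTAT3 libraries, 7, 16 and 26 in control BCL9, 57 and 86 in knockdown pSTAT3 and 44 and 72 in knockdown BCL9. S100A8 and S100A9, which form calprotectin, had 1 region each, with mean knockdown percentiles of 74.8 and 94.2. Their control BCL9 values were 0, 11 and 46 tags for S100A8 and 6, 9 and 10 tags for S100A9.

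In all, 434 genes had 1 shared promoter region, 44 had 2 and 13 had 3 or more, with KRT15 and SEPTIN9 at 4, and 211 of the 491 genes also had a promoter region with pSTAT3 alone. The other genes with 3 were TINAGL1, SHC1, ARHGEF2, IQCJ-SCHIP1, INF2, TK2 and KCNN4 beside S100A2, MYC, ANXA2 and ITGB2. Several of these have many annotated starts, SEPTIN9 28 and TK2 23, which gives a region more chances to lie near one. The rule's reach has an arbitrary edge: FBLIM1 (997 bp), ARHGEF2 (986 bp) and PPP1R13L (986 bp) fell just inside 1 kb and MMP28 (1003 bp), NQO2 and CAPN12 (1005 bp each) just outside, with control pSTAT3 replicate 3 values of 18, 19 and 28 tags inside and 32, 6 and 5 tags outside.

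The regions were centred a little upstream of the start. The strongest control pSTAT3 peak pair lay at a median of −70.5 bp from the nearest TSS, 65.2% of the 526 were upstream of it, and 58.6% lay within 250 bp. The median was −36.0 bp for the promoter regions with pSTAT3 alone. For those with BCL9 alone it was −80.0 bp, taken from the strongest control BCL9 peak pair. By annotation 47.9% of the centres lay in introns, 19.4% outside genes, 18.4% in 5′ untranslated exons and 3.42% in coding exons, and 28 regions (5.32%) were within reach of starts on both strands. Many of the starts were alternative ones. Within 1 kb of a canonical start, the one GENCODE marks as representative of a gene, lay 287 of the 526 (54.6%), so 239 regions (45.4%) were promoter regions through an alternative start alone, against 29.5% of the pSTAT3-alone and 14.5% of the BCL9-alone regions.

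**Figure D3:**
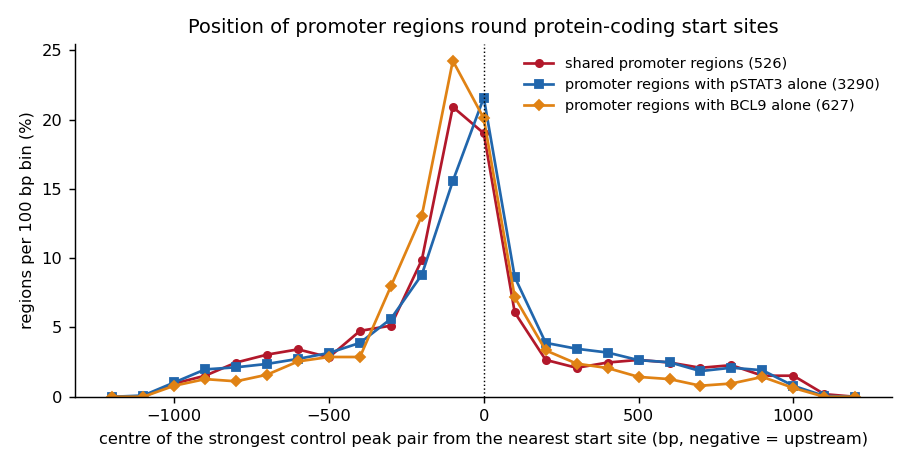
Distance of the strongest control peak pair from the nearest protein-coding start site (x axis, bp, negative upstream) against the percent of regions in each 100 bp bin (y axis), for the 3 classes of promoter region with their number in brackets. The peak pair is a BCL9 one for BCL9-alone regions and a pSTAT3 one otherwise. All 3 classes peak at or just upstream of the start, with medians of −70.5, −36.0 and −80.0 bp.

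The DNA of the shared promoter regions was richer in GC than its flanks, and poorer in CpG around the site than the other promoter classes. The 100 bp centre windows averaged 57.7% GC ± 10.4 (SD over 526 windows), against 60.0% for pSTAT3-alone, 58.0% for BCL9-alone (round their BCL9 peak pair) and 47.3% for distal shared regions, and 53.3% at flanks 500 bp away. Windows of 100 bp round all protein-coding TSSs averaged more, 61.7%. The ratio of observed to expected CpG over 1000 bp had a median of 0.343, below the 0.678 of the pSTAT3-alone and 0.737 of the BCL9-alone promoter regions and above the 0.192 of the distal shared ones. At a ratio above 0.6, a usual mark of CpG islands, lay 177 of the 526 (33.7%), against 58.5%, 77.8% and 0.724% of the other 3 classes. Of the regions near a canonical start 56.8% were CpG-rich, and of those near an alternative start alone 5.86%.

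The CpG-poor and CpG-rich members differed in the knockdown libraries, which the rule had not used. Of the 349 CpG-poor regions 94.6% and 96.6% had a window in knockdown pSTAT3 and 78.5% and 93.7% in knockdown BCL9. Of the 177 CpG-rich regions 80.8% and 81.9% had one in knockdown pSTAT3 and 58.8% and 81.4% in knockdown BCL9. The share was higher at CpG-poor regions in 4 of 4 libraries, as was the median tag number in knockdown pSTAT3 (19 and 19 against 9 and 10 tags); in knockdown BCL9 it was 13 and 14 against 13 and 11. CpG-poor regions were wider, with a median of 289 bp against 202 bp, and the part of width in these shares was not tested. Among the gene lists, the 7 basal epithelial and laminin genes were all CpG-poor, and 7 of the 8 immediate early and feedback genes were CpG-rich at the richest of their regions.

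Of the 16 strings, searched on both strands of the 100 bp centre windows, AP-1 (TGACTCA) showed the widest gap to the surroundings. It was found in 71 of the 526 windows (13.5%), in 1.81% of flanking windows 500 bp away and in 1.22% of 100 bp windows round all 78394 protein-coding TSSs. The pSTAT3-alone promoter regions held it in 12.4%, the distal shared regions in 22.3% and the BCL9-alone promoter regions in 0.638%. Windows of BCL9-alone regions were centred on the strongest control BCL9 peak pair. Those of the other classes were centred on the strongest control pSTAT3 peak pair. What part this has in the BCL9-alone shares was not tested. Within the shared promoter regions the AP-1 string sat mostly in CpG-poor sequence, in 65 of 349 windows (18.6%) against 6 of 177 CpG-rich ones (3.39%), with 1.86% and 1.69% at their flanks. The pSTAT3-alone promoter regions held it in 22.4% of CpG-poor and 5.35% of CpG-rich windows. Both lie above the shared regions, although the pooled share of pSTAT3-alone regions was slightly lower. The flanks 500 bp away averaged 53.3% GC against 57.7% at the centres, and the part of base composition in these shares was not tested. The 9-letter STAT3 palindrome TTCCNGGAA was found in 0.570%, beside 0.475% of the flanks and 0.361% of all TSSs, and the looser half-site pair TTCNNNGAA, which contains it, in 3.61% against 3.23% of flanks. The TCF/LEF string CTTTGAT was in 0.76% of the windows and 1.05% of the flanks.

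CpG-rich members held other strings. The GC box GGGCGG of SP and KLF factors was in 31.1% of them, against 12.3% of CpG-poor members and 17.8% of the CpG-rich flanks, and the ETS string CCGGAAG in 8.47%, against 1.43% and 1.69%. The NRF1 string CGCNTGCG was in 5.08% of CpG-rich members and 15.0% of CpG-rich promoter regions with pSTAT3 alone, and in 0 of 349 CpG-poor members, which allows up to 0.860%. The CCAAT box, CCAAT, was in 7.34% of CpG-rich members, below their flanks (13.8%), whereas 32.8% of the CpG-rich BCL9-alone regions held it. The BCL9-alone windows were read round BCL9 peak pairs, and members were not read round theirs. The TEAD string ACATTCC was in 2.47% of all members and 0.856% of flanks, and the C/EBP string TTGCNNAA in 5.89% and 3.71%. A match is a description of letters only. Over all TSSs the shares were 27.1% for the GC box, 6.19% for ETS, 5.07% for NRF1, 9.98% for CCAAT, 0.846% for TEAD and 2.52% for C/EBP.

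**Figure D4:**
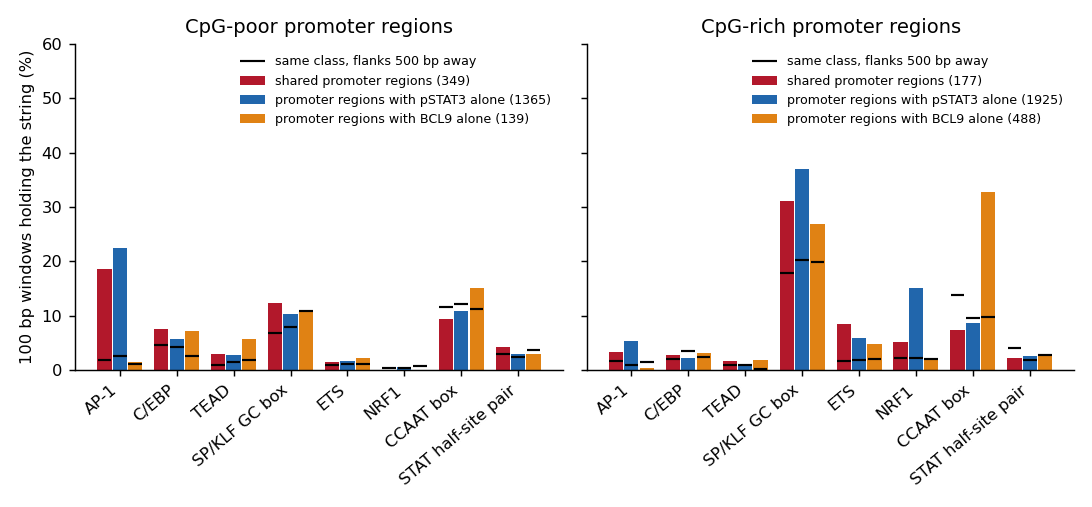
Percent of 100 bp centre windows that hold each of 8 strings (bars, y axis) in CpG-poor (left) and CpG-rich (right) promoter regions of 3 classes, with black lines for flanks 500 bp away of the same class. Windows are centred on the strongest control BCL9 peak pair in BCL9-alone regions and on the strongest control pSTAT3 peak pair in the others. AP-1 stands at 18.6% of CpG-poor and 3.39% of CpG-rich shared promoter regions, and CCAAT at 32.8% of CpG-rich BCL9-alone regions against 7.34% of CpG-rich shared ones.

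Members with an AP-1 string ranked higher in lists that had not chosen them. Their median percentiles were 95.8 and 96.1 in knockdown pSTAT3 and 90.2 and 96.4 in knockdown BCL9, against 85.3, 87.3, 86.5 and 92.3 for the 455 members without one, and each of the 4 libraries had the same direction. In tags the medians were 26.5 and 27 against 13 and 14 in knockdown pSTAT3, and 15 and 16.5 against 13 and 12 in knockdown BCL9. Of the 102 members with a window in all 10 pSTAT3 and BCL9 libraries 26.5% held the string, against 10.4% of the other 424. That split, unlike the ranks, also uses the control libraries that chose the regions, and is a description only. Members with the string were wider (median 369 bp against 244 bp), and no test was made over members, which are not replicates. They also lay mostly in CpG-poor sequence. All CpG-poor members together had median percentiles of 92.0 and 92.2 in knockdown pSTAT3 and 86.5 and 94.5 in knockdown BCL9. CpG-rich members had 76.2, 80.4, 86.5 and 90.8 in the same order. Whether rank differed with the string within CpG-poor sequence was not tested. The share of members with the string was higher when regions had to be stronger, 29.5% at equal list length, so it describes the stronger regions more than the weaker ones.

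CTCF, the insulator protein precipitated in 1 control library, had a window at 170 of the 526 regions (32.3%, Wilson 95% interval 28.5 to 36.4), against 17.4% of all control pSTAT3 regions, 24.6% of pSTAT3-alone, 23.3% of BCL9-alone and 22.3% of distal shared regions. The CTCF list is long, 457119 peak pairs, and the peak pairs found here lay in its middle, with a median percentile of 46.5. Asked only of the 100 bp round the centre the share was 24.3%. The other classes were not compared at that fixed width. Median widths were 257 bp for shared promoter, 182 bp for pSTAT3-alone, 181 bp for BCL9-alone and 313 bp for distal shared regions. The part of width in the CTCF shares was not tested. When every list was shortened to its 24728 strongest peak pairs, 0 of the then 132 shared promoter regions had a CTCF window, which allows up to 2.27%. The members with a CTCF window held the AP-1 string in 7.06%, against 16.6% of those without. Few regions of the named genes had a strong CTCF peak pair. Among them were 90 tags at the start shared by EIF2S1 and ATP6V1D and 80 tags at PPP1R13L. A region of EIF2S3 held 58 tags and a region of MYC 56 tags.

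The 2 borders of the strongest peak pair, which enclose the stretch protected from exonuclease, differed by few bp between promoter and distal shared regions. The median spacing per library averaged 97.6 bp ± 5.18 in pSTAT3 libraries (SD, n = 5) and 109.7 bp ± 11.5 in BCL9 libraries (SD, n = 5) at shared promoter regions. It differed from that at distal shared regions by −2.15 bp ± 3.51 (SD, n = 10, lower in 8 libraries; exact sign-flip p = 0.0977). Without control BCL9 replicate 1 the value was −4.67 bp (exact p = 0.0469), and over all peak pairs of a region, a choice made after seeing the data, it turned to 1.5 bp (exact p = 0.0781). So neither a difference nor its direction was stable.

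BCL9-antibody peak pairs were 12.1 bp wider than pSTAT3 peak pairs at the same regions (exact permutation p = 0.0794; the smallest possible is 0.00794). The control BCL9 medians were 110, 117 and 113 bp and the control pSTAT3 medians 104, 90 and 100 bp, without overlap, but knockdown BCL9 replicate 2 lay at 90 bp, beside 118.5 bp in replicate 1. Without that library the difference was 17.0 bp (exact p = 0.00794), and at equal list length it turned to −1.90 bp. At distal shared regions the control medians averaged 113.3 bp for BCL9 and 100.7 bp for pSTAT3. The knockdown medians there averaged 106.5 and 101.5 bp. Over the whole lists the median was also wider for BCL9 than for pSTAT3 in each replicate of the same number and condition. The wider BCL9 spacing was therefore not particular to shared promoter regions. Between knockdown and control at shared promoter regions the difference was −1 bp for pSTAT3 (exact permutation p = 0.9). For BCL9 it was −9.08 bp (exact permutation p = 0.6), where 3 libraries against 2 cannot give a p below 0.1. The median distance between the strongest BCL9 and pSTAT3 midpoints of a region averaged 55.3 bp over 9 control library pairs (52 to 58 bp). Over 4 knockdown library pairs this median averaged 59.5 bp (54 to 67 bp). Neither antibody lay on a fixed side, with a median signed offset from −6 to 7 bp. The rule asked for overlapping control regions, so closeness in control libraries is in part set by the choice.

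**Figure D5:**
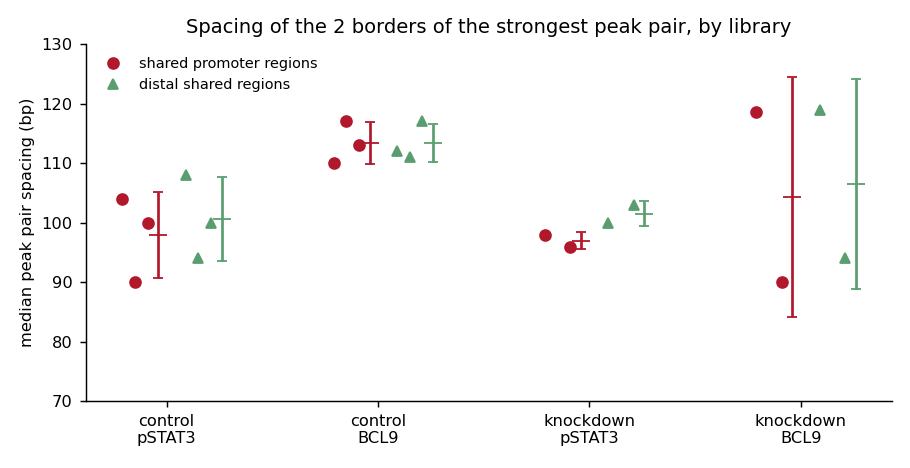
Median spacing of the strongest peak pair (y axis in bp, from 70) in each library (points) with the mean and SD of each group beside it, for shared promoter and distal shared regions. The control BCL9 libraries lie at 110 to 117 bp at shared promoter regions, and the 2 knockdown BCL9 libraries lie apart at 118.5 and 90 bp.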

How the data were processed

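The deposited lists hold 1 peak pair per line, with its 2 borders on hg19 and a signal computed by the authors, 1 list per library; the program tag names a peak-pairing tool, the submitters' processing notes name bcl2fastq, and no aligner is named in the sources used here. Dividing each signal by the smallest step of its library gave whole tags throughout; what fixed the step is not stated. All 11 libraries with a list were used, the IgG library was not analysed here, and read depth was not used.

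Regions were built as described above with 100 bp windows, a minimum of 2 of 3 control libraries and a reach of 1 kb round the 78394 start sites of protein-coding transcripts in GENCODE release 44 on GRCh37. A library counted as present where its window overlapped a region, and the strongest such peak pair gave tags, percentile and spacing. Differences per library were tested by exact sign flips and groups of libraries by exact permutation, two-sided, with a threshold of 0.05. Strings and CpG ratios (1000 bp) were read from GRCh37 with pysam 0.24.0. The scripts were tested on simulated data. Tools were samtools 1.23.1 and, under Python 3.11.15, pandas 2.3.3, numpy 2.4.6 and scipy 1.17.1, with matplotlib 3.10.9 for figures.

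The regions, the 21 gene lists and the strings were chosen with earlier results of these data known. Regions were named by a rule: the 12 strongest by mean percentile over the 4 knockdown lists (no window counts 0), list members up to 8 per list, up to 8 regions without knockdown BCL9 windows, 3 on either side of the 1 kb edge, and genes with 3 or more regions; the S100 genes were added after their values were seen. Alternatives changed the reach, window, overlap, number of libraries, tag minimum and list length and left out each library. The 100 bp round the centre and all peak pairs of a region were alternatives chosen after seeing the data.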

Additional observations from a re-analysis of the deposited data

How the results depend on the processing

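The number of shared promoter regions (526) and of their genes (491) moved with how strong a peak pair had to be and with how many and which control libraries were asked for. It was 115 regions and 105 genes with all 3 of 3 control libraries, 145 and 132 with at least 9 tags, 132 and 120 at equal list length and 212 and 196 without the 2 single-run controls. Leaving out 1 library at a time gave 199 to 526 regions and 191 to 491 genes. The knockdown pSTAT3 share was 92.5% at a reach of 2 kb, 97.8% with all 3 control libraries, 88.9% with 50 bp windows, 93.1% with 9 tags, 75% at equal list length, 95.3% without the single-run controls, 86.5% on the 100 bp round the centre and 89.9% to 96.3% leaving out 1 library. The knockdown BCL9 share was 93.9% with all 3 control libraries. The CTCF share was 22.5% with 50 bp windows, 40.6% with 200 bp windows, 8.28% with 9 tags, 0% at equal list length and 24.3% on the 100 bp round the centre. The AP-1 share was 23.48% with all 3 control libraries, 27.6% with 9 tags, 29.5% at equal list length, 22.2% without the single-run controls and 13.1% to 24.1% leaving out 1 library. GC content was 56.1% at 2 kb, 56.0% with all 3 control libraries, 56.3% with 50 bp windows, 55.2% with 9 tags, 55.4% at equal list length, 56.2% without the single-run controls and 55.9% to 57.7% leaving out 1 library.

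Spacing was the least settled measure. Promoter minus distal spacing was −3.05 bp at 2 kb (exact p = 0.0234), −3.90 bp with 50 bp windows (exact p = 0.0273) and −4.50 bp with 200 bp windows (exact p = 0.0488), was 1.5 bp over all peak pairs, and ran from −4.67 to −1.39 bp leaving out 1 library. BCL9 minus pSTAT3 spacing was −1.90 bp at equal list length and 8.15 to 17.0 bp leaving out 1 library. Knockdown minus control spacing for pSTAT3 was 1.17 bp at 2 kb and −5.50 to 5.92 bp leaving out 1 library; for BCL9 it was 15.0 bp with all 3 control libraries, 33.5 bp at equal list length and −23.3 to 5.17 bp leaving out 1 library. With the replicate block it was 0 bp for pSTAT3 and −9.25 bp for BCL9, and the paired differences within an antibody went in opposite directions (−6 and 6 bp, 8.5 and −27 bp). The cause of these moves was not tested. The deficit of shared promoter against distal shared regions in share and percentile, and the excess over pSTAT3-alone regions, kept their direction in every alternative run. Depth was not known, and the list floors limit what absence of a window means.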
